A study of Gallus gallus with 18 samples.

Results

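Carriers of the SLC25 family move nucleotides, phosphate, amino acids, carboxylates, cofactors and metals across mitochondrial membranes, most of them across the inner one. Their liver signals were read in broiler chickens fed meal of black soldier fly larvae (Hermetia illucens, HI). Genes were taken by symbol, SLC25A followed by a number, in the array's annotation. 1 symbol was left out and is not analysed here. The probe set had to carry 1 symbol, and the set with the highest mean stood for its gene. That gave 27 carriers of 11528 named genes, on 28 probe sets, among 18226 probe sets in all. SLC25A29 was the 1 carrier with more than 1 probe set. The symbol rule itself used no measured difference, but the family was chosen with earlier results of these data known. A further 2 probe sets named a carrier together with another gene and were not used. UCP3, MTCH1 and MTCH2, which belong to the same protein family under other symbols, are described with the related transporters.

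The animals were male Cobb 500 broilers, 72 in the trial, kept in cages of 4 and put on their diets at one day of age. Liver RNA of 18 samples was measured on single-colour Affymetrix arrays, 6 for each diet. HI0 birds received no larvae meal, HI7.5 birds 7.5% (75 g per kg of diet) and HI15 birds 15% (150 g per kg) of a partially defatted meal for 35 d. The meal took the place of soybean meal, soybean oil and wheat, so those feedstuffs differ between the diets as well, and synthetic amino acids balanced the supply. The labels do not give the cage of each sample or say that each is a different bird, so the tests measure only how far these samples spread. Whole liver was used, in which fewer cells of a type and less RNA per cell cannot be told apart.

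In hepatocytes these carriers link the cytosol to mitochondrial metabolism. ADP/ATP translocases and the phosphate carrier feed ATP synthase, the aspartate/glutamate carrier serves the malate-aspartate shuttle, and the acylcarnitine carrier brings fatty acids to oxidation. Birds excrete nitrogen as uric acid rather than urea, so carriers tied to the urea cycle in mammals work beside a different pathway here. All values below are log2 signals after RMA, a procedure that corrects background, normalizes arrays and summarises each probe set. A difference of 1 on this scale is a doubling of signal. Signals of different probe sets depend on their probes and are not ranked against each other as amounts of RNA.

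The arrays were alike. Their medians lay between 7.23 and 7.31, they correlated with each other at 0.966 to 0.990, and no 2 were identical. Hepatocyte markers were bright, with albumin at 14.5, apolipoprotein A1 at 14.1 and fibrinogen beta chain at 13.7, while 2 of the 12 measured, RBP4 at 6.58 and CPS1 at 6.21, were below the array medians. Skeletal muscle markers, 10 measured, lay between 3.08 and 6.88, and pancreas and gut markers between 4.11 and 6.93. Markers of other liver cells were present, with stellate and fibroblast markers at 6.68 to 10.83, macrophage markers at 6.71 to 11.63 and endothelial markers at 7.60 to 10.14. All 8 stellate and fibroblast markers were above 0 for HI15 against HI0 (median 0.19), beside 51.8% of genes. For HI15 against HI7.5 it was 7 of 8 (median 0.26), beside 51.2%. Of these, 3 were higher at an unadjusted p under 0.05, beside 1.61% of genes. For HI7.5 against HI0, 3 of 8 were above 0 (median -0.04), beside 50%, and 0 were called in each comparison. The mean of these 8 markers ran from 8.10 to 8.71 in HI0, 7.92 to 8.63 in HI7.5 and 8.20 to 9.04 in HI15. Its part in the carrier values was not tested. Of 10 pancreas and gut markers, 2 were above 0 for HI15 against HI0, 0 for HI7.5 against HI0 and 7 for HI15 against HI7.5. For HI7.5 against HI0, 2 of the 10 were lower at an unadjusted p under 0.05, beside 1.69% of genes. Counts above 0 for HI15 against HI0, HI7.5 against HI0 and HI15 against HI7.5, in that order, stand beside the same shares of genes. They were 5, 7 and 1 of 8 for macrophage and 6, 10 and 4 of 12 for hepatocyte markers. Red cell markers had 6, 7 and 4 of 10 and skeletal muscle 2, 2 and 4 of 10. Lymphocyte markers had 4, 4 and 3 of 10, endothelial 6, 4 and 5 of 8, and cholangiocyte 3 of 5 each time. Their part in the carrier values was not tested either. Of the 10 red cell markers, the hemoglobin chains HBA1 and HBAD, at 10.0 and 9.94, were the bright ones; chicken red cells are nucleated and blood remains in whole liver. The spread of signals within an array, the SD over all probe sets, ran from 1.77 to 1.92 in HI0, from 1.80 to 1.97 in HI7.5 and from 1.81 to 1.94 in HI15. Because many genes followed this spread, values with it as a covariate are given where it touches a result.

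Adenine nucleotide and phosphate carriers form the group closest to ATP synthesis. SLC25A6, an ADP/ATP translocase, had a signal of 12.84 to 13.22 over the 18 livers. SLC25A4, the translocase that predominates in mammalian heart and muscle, lay between 8.36 and 9.47. The translocases are close paralogs, and the SLC25A6 probe set carried no gene identifier, so signal of each from the other's transcript cannot be set aside. SLC25A3, the phosphate carrier that supplies ATP synthase, lay between 10.68 and 11.39. The calcium-regulated ATP-Mg/phosphate carriers, which set the size of the matrix nucleotide pool, were SLC25A24 at 6.88 to 7.83 and SLC25A25 at 9.11 to 10.21. SLC25A6 hardly varied between livers, whereas SLC25A4 and SLC25A25 each spanned over a doubling of signal (2.16-fold and 2.14-fold).

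Among amino acid carriers, SLC25A13 (citrin), which exchanges aspartate for glutamate, lay between 10.31 and 10.93. SLC25A22, a glutamate carrier, lay between 8.06 and 8.52. SLC25A29, which carries basic amino acids such as arginine and lysine, ranged from 7.98 to 9.53. SLC25A38, a glycine carrier that supplies heme synthesis, stayed between 6.97 and 7.37. SLC25A15 exchanges ornithine and citrulline in the mammalian urea cycle, and its signal of 5.81 to 6.41 was below the array medians in every liver. OTC, the mammalian partner enzyme that makes citrulline from ornithine, had a mean of 4.14 on its probe set, and OAT, which turns ornithine to glutamate semialdehyde, a mean of 8.56.

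Of the carboxylate and acylcarnitine carriers 3 were measured. SLC25A10, which exchanges malate and succinate for phosphate, lay between 9.21 and 9.81. SLC25A20, the carnitine/acylcarnitine carrier of fatty acid oxidation, lay between 10.29 and 10.78. SLC25A21, the 2-oxoadipate carrier of lysine and tryptophan breakdown, was more variable, from 7.35 to 8.27.

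Cofactor, nucleotide and glutathione carriers numbered 8. SLC25A42 imports coenzyme A and lay between 7.81 and 8.46, and SLC25A16, also linked to coenzyme A, between 8.55 and 9.07. SLC25A26, the carrier of the methyl donor S-adenosylmethionine, stayed between 7.26 and 7.70. SLC25A32, linked to folate and FAD, ranged from 6.84 to 7.86. The pyrimidine nucleotide carriers were SLC25A33 at 6.83 to 7.81 and SLC25A36 at 6.78 to 7.81. SLC25A39, the glutathione importer, lay between 8.28 and 8.92, whereas its paralog SLC25A40 had a dim probe set, at 3.46 to 4.18. At such a low signal a change in RNA may leave little trace, and the table holds no background value to set a limit.

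The mitoferrins SLC25A28 and SLC25A37 import iron for heme and iron-sulfur clusters, and SLC25A37 is the form of developing red cells in mammals and zebrafish. SLC25A28 lay between 8.55 and 9.08 and SLC25A37, with a wider range, between 6.66 and 7.80. SLC25A30, a relative of the uncoupling proteins, ranged from 7.69 to 9.65. SLC25A46 sits in the outer membrane and shapes mitochondria, with 8.13 to 8.92. SLC25A48, linked to choline import in mammals, had a dim signal of 4.75 to 5.46. The substrate of SLC25A43 is unsettled, and it stayed between 7.84 and 8.22. Of the 27 carriers, 20 had a mean above the range of the array medians and 5 a mean below it.

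**Figure D1:**
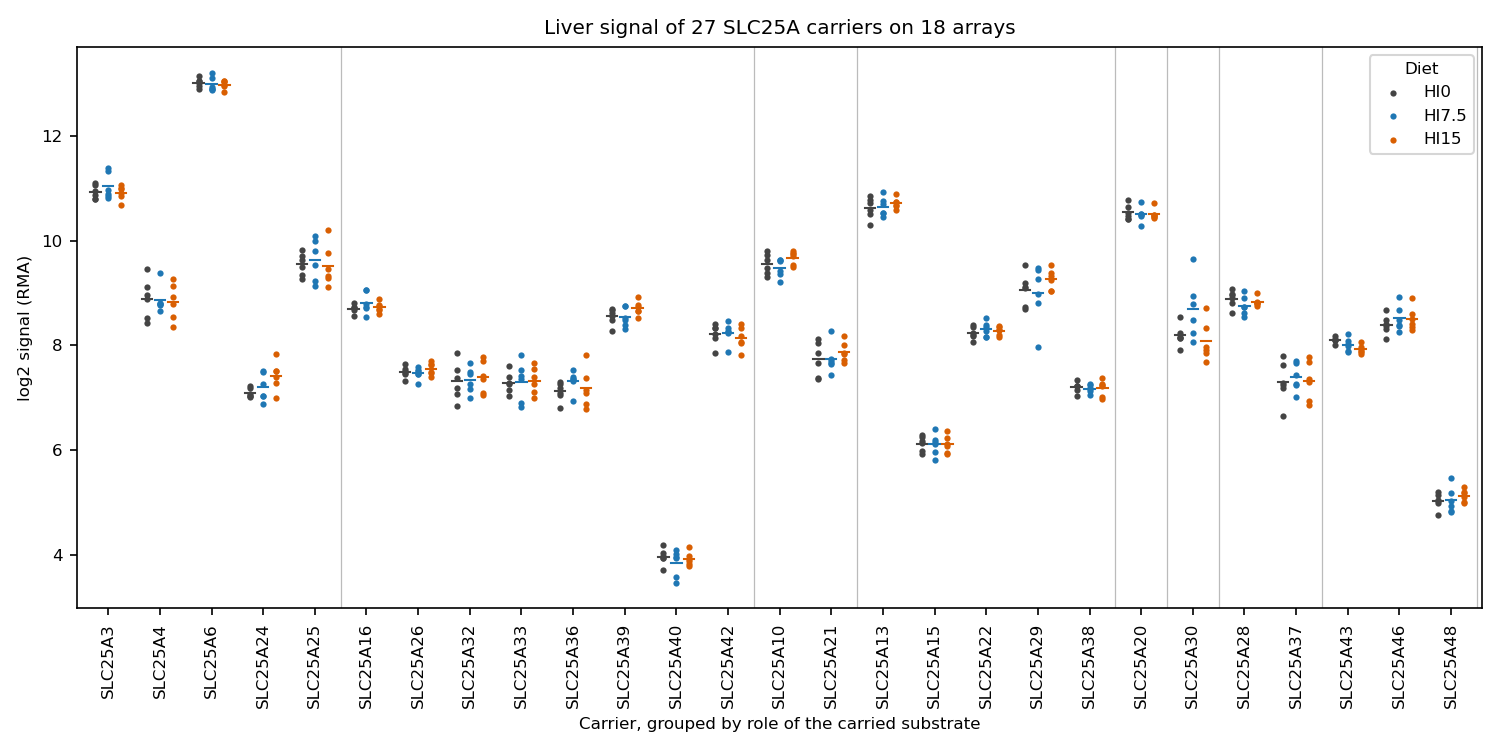
Log2 signal (vertical axis) of the 27 carriers (horizontal axis, grouped by role, vertical lines between roles) on 18 arrays. Points are single livers coloured by diet and short bars are the mean of 6 livers. The 3 diets of each carrier are drawn side by side. Their ranges overlap for every carrier, and SLC25A30 has the widest range, 1.96.

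The comparison of HI15 with HI0 asks what the higher share of meal does. Of the carriers 0 of 27 passed the test (limma, adjusted over all probe sets, threshold 0.05), against 0% of all 18226 probe sets. The smallest adjusted p of a carrier was 0.999. At an unadjusted p under 0.05 there were 2 carriers, beside 2.75% of all 11528 genes and 3.14% of probe sets. They were 1 higher (1.26% of genes) and 1 lower (1.49%). The difference was above 0 for 15 carriers, against 51.8% of all genes, and its median was 0.03 against 0.01 over all genes. The groups overlapped for every carrier; 0.0954% of genes had groups that did not.

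SLC25A24, an ATP-Mg/phosphate carrier, had the smallest p among the higher carriers. In HI0 its signal was 7.02 at the lowest, 7.06 at the median and 7.23 at the highest liver. In HI7.5 these values were 6.88, 7.15 and 7.52, and in HI15 7.00, 7.46 and 7.83. The HI0 livers lay close together. Of the HI15 livers, 5 of 6 were above the HI0 mean and above every HI0 liver, while the sixth was below every HI0 liver. Its difference was 0.33 ± 0.13 (SE; 95% interval 0.06 to 0.59; limma, adjusted p = 0.999). Across livers SLC25A24 followed the array spread more than any other carrier (r = 0.74), and with that spread as a covariate its difference was 0.26. Without HI15 replicate 6 it was 0.24.

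SLC25A43, of unsettled substrate, had the smallest p among the lower carriers. Its signal was 8.0, 8.11 and 8.19 (lowest, median, highest) in HI0, 7.88, 8.0 and 8.22 in HI7.5, and 7.84, 7.92 and 8.06 in HI15. All 6 HI15 livers were below the HI0 mean, though the groups overlapped between 8.0 and 8.06. Its difference was -0.18 ± 0.08 (SE; 95% interval -0.33 to -0.02; limma, adjusted p = 0.999). SLC25A43 had the smallest residual SD of the carriers, and its correlation with the array spread was -0.01.

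Glutathione importer SLC25A39 was at 0.15 ± 0.10 (SE), dicarboxylate carrier SLC25A10 at 0.12 ± 0.10 and basic amino acid carrier SLC25A29 at 0.20 ± 0.20. On the lower side, mitoferrin SLC25A28 was at -0.06 ± 0.09, coenzyme A carrier SLC25A42 at -0.07 ± 0.12 and SLC25A30 at -0.11 ± 0.21. All 6 had an interval that included 0. With array spread as a covariate SLC25A39, which ran against it (r = -0.65), was at 0.20 (limma, adjusted p = 1.0). Its unadjusted limma p was then 0.0245, against 0.136 without the covariate. In that fit 3 carriers had an unadjusted p under 0.05, and 0 were called. Of all 18226 probe sets, 710 had an unadjusted limma p under 0.05 in that fit, against 573 without the covariate.

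The comparison of HI7.5 with HI0 asks the same of the lower share of meal. Again 0 of 27 carriers passed, against 0% of all probe sets, and 1 had an unadjusted p under 0.05 beside 2.65% of genes and 3.1% of probe sets. It was higher, as were 0.954% of genes, and 0 carriers were lower, beside 1.69%. The difference was above 0 for 15 carriers, against 50% of all genes, with a median of 0.01 against 0.00. The groups of every carrier overlapped, and 0.0867% of genes had groups that did not.

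That 1 carrier was SLC25A30, the uncoupling protein relative. Its signal was 7.92, 8.16 and 8.54 (lowest, median, highest) in HI0 and 8.06, 8.64 and 9.65 in HI7.5. HI15 livers had 7.69, 7.94 and 8.71. The HI7.5 group was the most spread out, with an SD of 0.574 against 0.201 in HI0 and 0.374 in HI15, and its highest liver, replicate 5, stood 0.94 above the highest liver of another diet. The difference from HI0 was 0.50 ± 0.21 (SE; 95% interval 0.06 to 0.95; limma, adjusted p = 0.999). Without HI7.5 replicate 5 it was 0.31, and with array spread as a covariate 0.42.

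Other named carriers on the higher side in HI7.5 were pyrimidine nucleotide carrier SLC25A36 at 0.19 ± 0.15 (SE), coenzyme A-linked SLC25A16 at 0.12 ± 0.09 and phosphate carrier SLC25A3 at 0.11 ± 0.11. On the lower side were SLC25A28 at -0.13 ± 0.09, SLC25A43 at -0.09 ± 0.08, SLC25A40 at -0.12 ± 0.11 and SLC25A10 at -0.08 ± 0.10. All 7 intervals included 0. For SLC25A3, 3 of 6 HI7.5 livers were above the HI0 mean, so its difference came from part of the group; without HI7.5 replicate 3 it was 0.04.

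HI15 was set against HI7.5 to compare both levels of meal, and it shares its samples with both comparisons above. Of the 27 carriers 0 passed, against 0% of all probe sets, and 1 had an unadjusted p under 0.05 beside 2.56% of genes and 3.16% of probe sets. It was lower, as were 0.946% of genes, and 0 were higher, beside 1.61%. The difference was above 0 for 14 carriers, against 51.2% of genes, with a median of 0.01 against 0.00. Again the groups of every carrier overlapped, against 0.0607% of genes whose groups did not.

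SLC25A30 was that carrier, at -0.61 ± 0.21 (SE; 95% interval -1.06 to -0.17; limma, adjusted p = 0.999). Of the HI15 livers, 5 of 6 were below the HI7.5 mean of 8.69. Without HI7.5 replicate 5 the difference was -0.42. Dicarboxylate carrier SLC25A10 was next, with 9.21, 9.52 and 9.63 (lowest, median, highest) in HI7.5, 9.51, 9.73 and 9.81 in HI15 and 9.31, 9.57 and 9.80 in HI0. All 6 HI15 livers were above the HI7.5 mean, and its difference was 0.20 ± 0.10 (limma, adjusted p = 0.999).

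Further values for HI15 against HI7.5 were 0.17 ± 0.10 (SE) for SLC25A39, 0.22 ± 0.13 for SLC25A24 and 0.26 ± 0.20 for SLC25A29. On the lower side SLC25A3 was at -0.12 ± 0.11, SLC25A43 at -0.08 ± 0.08 and SLC25A16 at -0.09 ± 0.09. All 6 intervals included 0. For SLC25A29 the value rested on 1 liver, HI7.5 replicate 1 at 7.98, and without it the difference was 0.06. The dimmer SLC25A29 probe set spanned 6.42 to 7.39 and correlated with the brighter one at 0.77. For the same comparison it gave 0.35 (limma, unadjusted p = 0.0119), where 3.16% of probe sets had an unadjusted p under 0.05. It was not called, as the smallest limma adjusted p of all probe sets was 0.832. This value was looked up because the brighter set rested on 1 liver. Whether the dimmer set rested on the same liver was not tested.

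**Figure D2:**
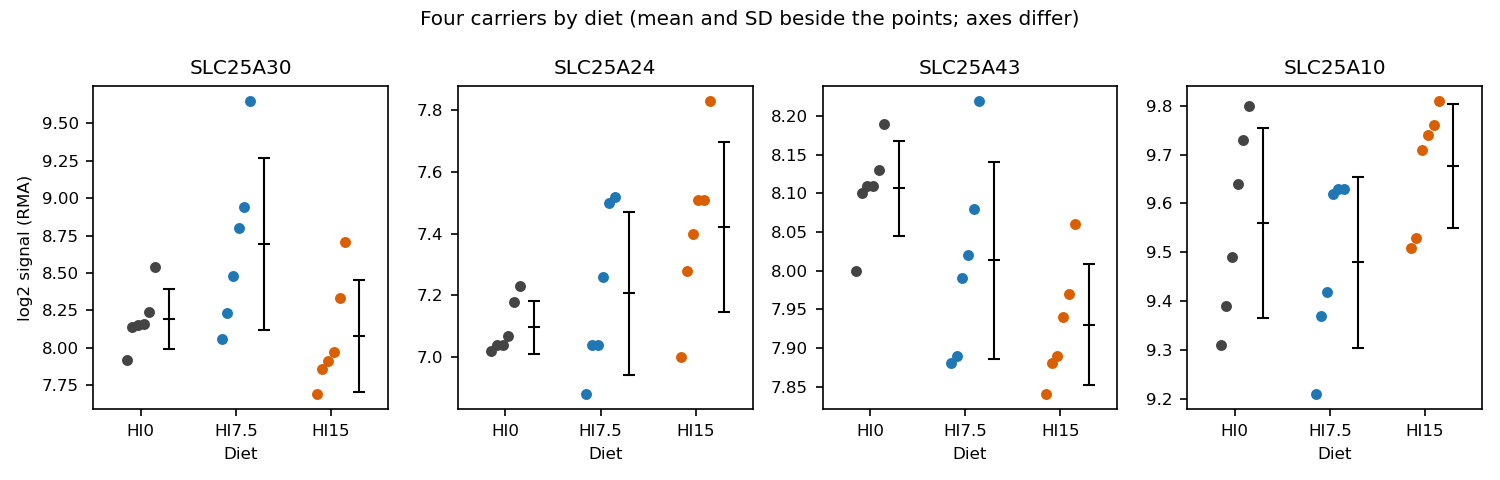
Log2 signal (vertical axes, which differ between panels) of SLC25A30, SLC25A24, SLC25A43 and SLC25A10 by diet; points are single livers, sorted by value within a diet, and bars beside them show the mean and SD of 6. The diets overlap in every panel, and the highest SLC25A30 value, 9.65, is a single HI7.5 liver.

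Over the 3 diets together, the moderated F test called 0 carriers and 0% of all probe sets, and 1 carrier had an unadjusted p under 0.05 beside 2.36% of genes. The 4 carriers with the smallest F p were SLC25A30, SLC25A24, SLC25A43 and SLC25A10, each with a limma adjusted p of 1.0. The slope on meal content called 0 carriers and 0% of probe sets, with 2 carriers at an unadjusted p under 0.05 beside 2.88% of genes. Those were SLC25A24, at 0.22 ± 0.08 (SE) per 10 percentage points of meal (limma, adjusted p = 0.999), and SLC25A43, at -0.12 ± 0.05 (limma, adjusted p = 0.999). In both the median of HI7.5 lay between those of the other diets. For SLC25A30 it did not, since HI7.5 had the highest median. With 6 samples at each of 3 evenly spaced meal contents, the slope estimate depends only on the HI0 and HI15 means. It restates the HI15 against HI0 difference and adds no separate support for SLC25A24 or SLC25A43.

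The intervals bound how large a diet difference these samples allow in each carrier. For HI15 against HI0 the 95% interval lay within 1.5-fold either way for 25 of 27 carriers, and within 1.25-fold for 12, beside 93.4% and 46.8% of genes. SLC25A24 and SLC25A29 reached furthest, to 1.51-fold and 1.54-fold. The interval that reached least far, to 1.14-fold, was that of glycine carrier SLC25A38. Among carriers of energy metabolism the reach was 1.15-fold for SLC25A6, 1.16-fold for SLC25A20, 1.18-fold for SLC25A3, 1.23-fold for SLC25A13 and 1.34-fold for SLC25A4. For HI7.5 against HI0, 26 carriers lay within 1.5-fold and 14 within 1.25-fold, beside 93.5% and 48.5% of genes. SLC25A30 was the exception, with an interval that reached 1.93-fold. For HI15 against HI7.5, 25 lay within 1.5-fold and 13 within 1.25-fold, beside 93.5% and 48% of genes. Here SLC25A30 reached 2.09-fold, the furthest of any carrier in the 3 comparisons, and SLC25A29 1.61-fold. These intervals are taken 1 gene at a time and are for signal. For the dim SLC25A40 and SLC25A48 they do not bound the RNA. SLC25A15, at 5.81 to 6.41, lay within the levels of the skeletal muscle markers (3.08 to 6.88). Its interval may not bound the RNA either.

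**Figure D3:**
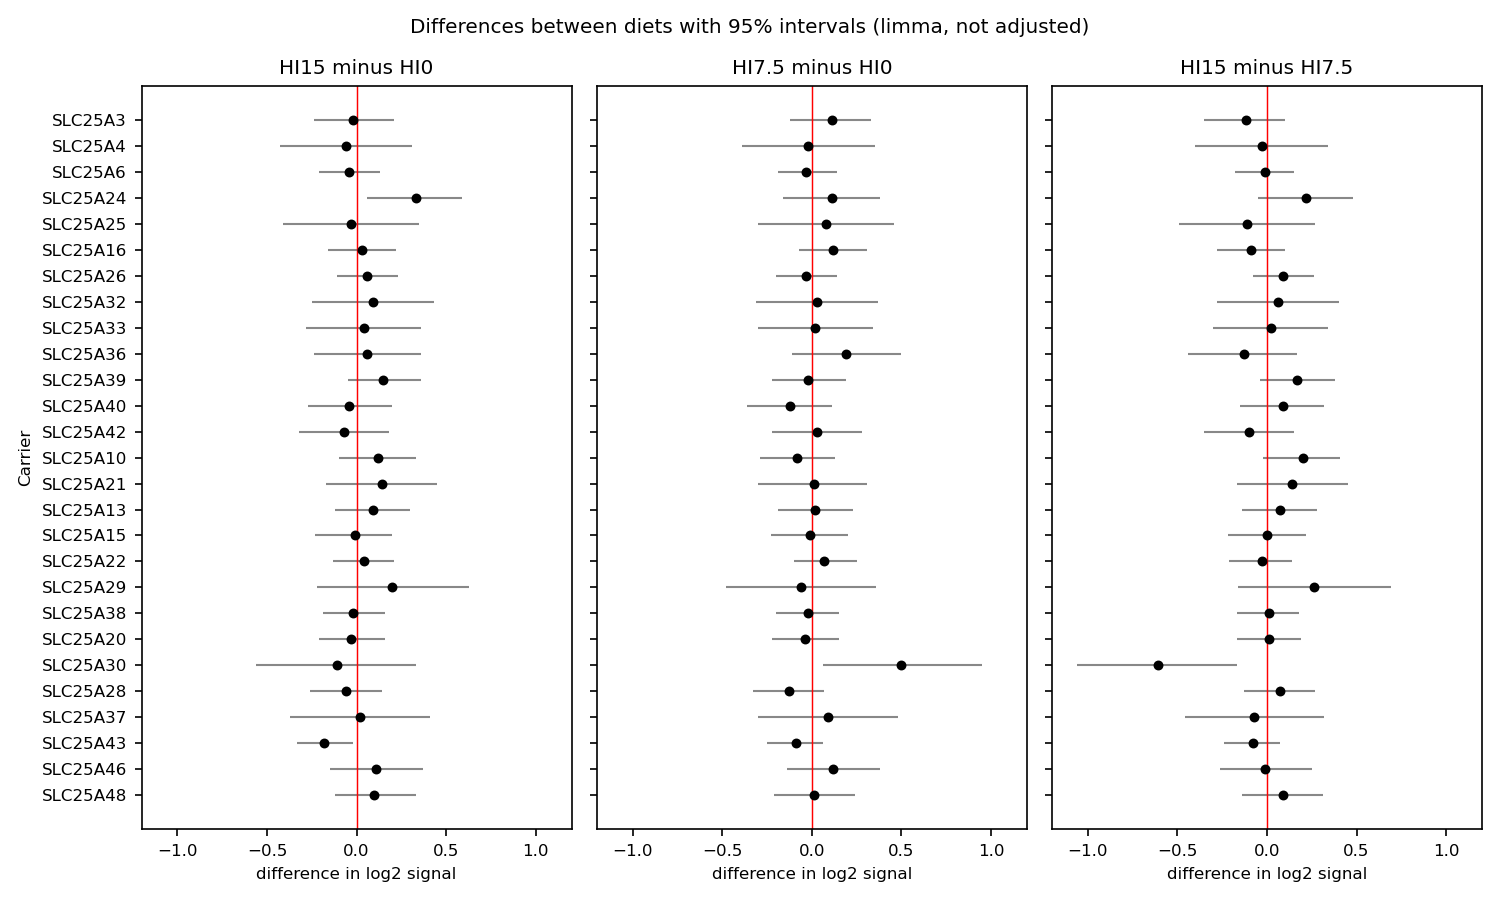
Difference in log2 signal (horizontal axes) of each carrier (vertical axis) in the 3 comparisons; points are limma estimates and lines their unadjusted 95% intervals. Nearly all lines cross 0 and most stay within a 1.5-fold difference, with SLC25A30 the widest shift, at 0.50 and -0.61 in the comparisons that hold HI7.5.

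The spread between livers on the same diet differed widely among the carriers. The SD between livers of 1 diet (residual SD of the fit) had a median of 0.183 over the carriers, against 0.207 over all genes, and 12 of 27 carriers were above that gene median. The range over all livers ran from 0.38 for SLC25A6 and SLC25A43 to 1.96 for SLC25A30. It was over 1 log2 unit for 7 carriers, beside 22.4% of genes.

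The 6 carriers with the largest residual SD were SLC25A30 (0.413), SLC25A29 (0.388), SLC25A37 (0.353), SLC25A25 (0.347), SLC25A4 (0.335) and SLC25A32 (0.306). They stand at the 95.9th, 94.9th, 92.6th, 92.1st, 90.9th and 86.5th percentiles of all genes. The 3 smallest were SLC25A43 (0.0933), SLC25A6 (0.106) and SLC25A26 (0.112), at the 1.11th, 2.83rd and 4.16th percentiles. Highly variable and steady carriers occur within the same role, as SLC25A4 and SLC25A6 among the translocases and SLC25A37 and SLC25A28 (0.148) among the mitoferrins show.

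Some of these variable carriers shared their extreme livers and others did not. SLC25A30 was highest in HI7.5 replicate 5 (9.65) and HI7.5 replicate 6 (8.94). SLC25A29 was lowest in HI7.5 replicate 1, at 7.98 against 8.69 in the next liver. SLC25A37 was lowest in HI0 replicate 5 (6.66) and highest in HI0 replicate 2 (7.80). SLC25A25 was highest in HI15 replicate 2, at 10.21, and lowest in HI15 replicate 6, at 9.11. SLC25A4 ran from 8.36 in HI15 replicate 6 to 9.47 in HI0 replicate 4. SLC25A32, the folate and FAD carrier, ran from 6.84 in HI0 replicate 5 to 7.86 in HI0 replicate 2, the same livers as the lowest and highest of SLC25A37. SLC25A4 and SLC25A25 shared HI15 replicate 6 as their lowest.

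Counted by liver, HI7.5 replicate 3 held the highest value of 5 carriers and HI7.5 replicate 1 of 4. HI0 replicate 5 and HI7.5 replicate 6 each held the lowest value of 4. In HI0 replicate 5 only 6 of 27 carriers were above the HI0 mean, against 13 to 19 in the other HI0 livers, and its median deviation from that mean was -0.12. This array also had the smallest spread of signals, 1.77, and HI7.5 replicate 3 had the largest, 1.97. The part of that spread in the carriers' low and high values was not tested beyond the covariate fits given here. At the other end 20 of 27 carriers were above the HI0 mean in HI15 replicate 2, with a median deviation of 0.13 and an array spread of 1.83. No share over all genes stands beside these counts by liver, so whether they are particular to the carriers was not tested.

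**Figure D4:**
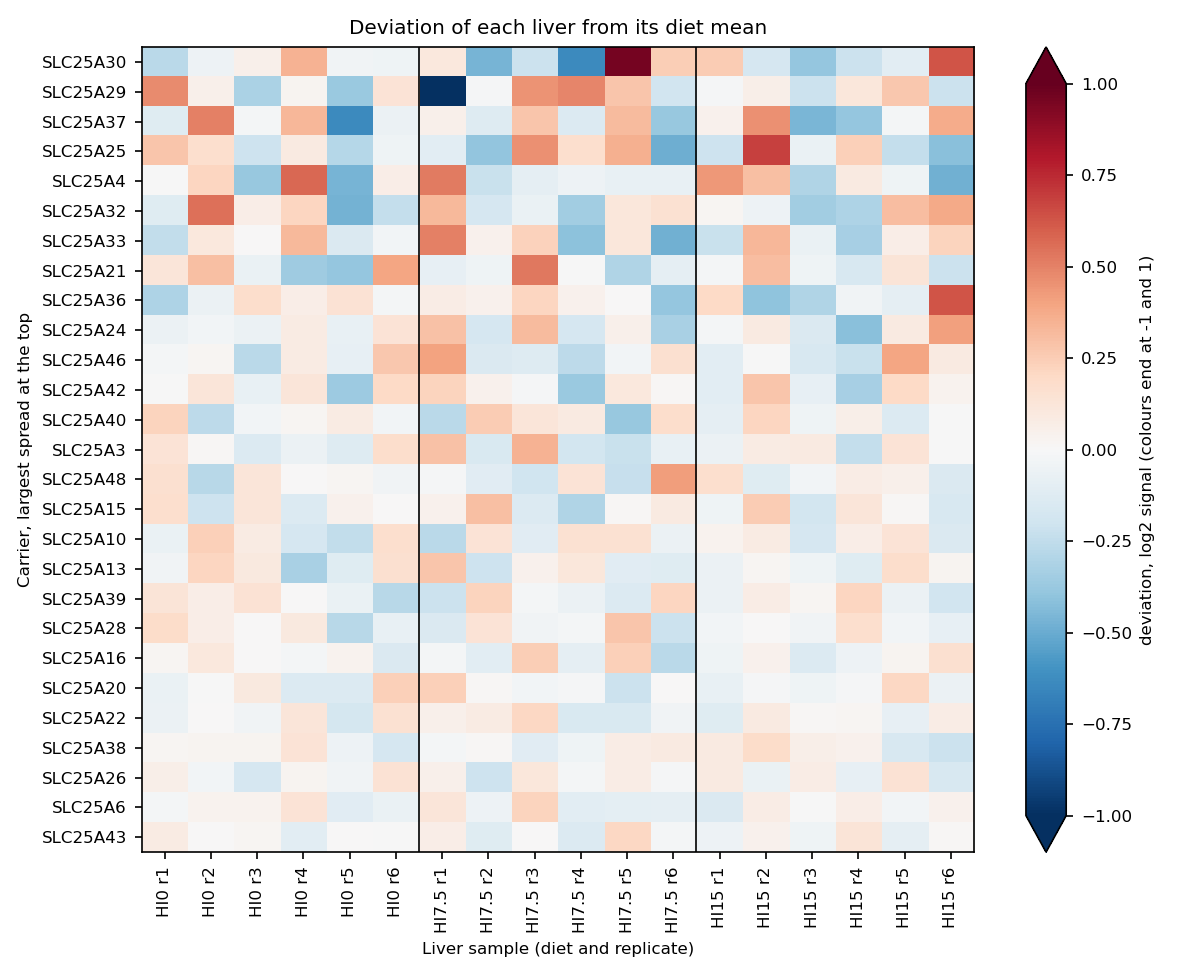
Deviation of each liver (horizontal axis, grouped by diet) from its diet mean in log2 signal (colour) for the 27 carriers (vertical axis, largest residual SD, 0.413, at the top and smallest, 0.0933, at the bottom). The strongest colours are single livers, such as SLC25A30 in HI7.5 replicate 5 and SLC25A29 in HI7.5 replicate 1.

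Whether carriers follow a partner from liver to liver was asked for 9 chosen pairs, as the correlation of deviations from the diet means over 18 livers. P-values are two-sided, from 100000 permutations within diets, and adjusted over the 9 pairs; 0 passed and 0 had an unadjusted p under 0.05. The closest was acylcarnitine carrier SLC25A20 with CPT1A, the enzyme that makes acylcarnitines for it (Pearson r = 0.52, permutation p = 0.0539, adjusted p = 0.485; Spearman rho = 0.35, permutation p = 0.194, adjusted p = 0.549). Without the 2 livers farthest from the CPT1A median, HI7.5 replicates 1 and 5, r was 0.14. Omission of 1 liver at a time left r between 0.32 and 0.64. Leaving out the livers most extreme in CPT1A also narrows its range. The drop therefore cannot decide whether the relation rested on them.

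SLC25A37 with the mean of the red cell markers gave r = 0.34 (permutation p = 0.214, adjusted p = 0.603) and rho = 0.40 (p = 0.138, adjusted p = 0.549), and r was 0.21 without the 2 farthest livers. That marker mean ran from 6.71 to 7.23 in HI0, 6.82 to 7.27 in HI7.5 and 6.72 to 7.55 in HI15. The phosphate carrier SLC25A3 with the mean of 9 ATP synthase subunits gave r = 0.31 (permutation p = 0.156, adjusted p = 0.603) and rho = 0.38 (p = 0.124, adjusted p = 0.549), and 0.41 without the farthest livers. Glycine carrier SLC25A38 with ALAS1, the first enzyme of heme synthesis, gave r = 0.25 (permutation p = 0.268, adjusted p = 0.603) and rho = 0.29 (p = 0.244, adjusted p = 0.549).

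The other pairs lay nearer to 0. They were SLC25A25 with the metabolic coactivator PPARGC1A at r = 0.14, SLC25A13 with ASS1, argininosuccinate synthase, at -0.12, and SLC25A4 with the mean of skeletal muscle markers at -0.17. All 10 muscle markers had means below the array medians (3.08 to 6.88). Whether their mean follows muscle content is therefore not known, and that pair cannot decide the relation. SLC25A15 with OAT was at -0.01 and SLC25A10 with FASN, fatty acid synthase, at -0.02. Permutation p-values of these 5 ran from 0.527 to 0.964. With array spread removed as well, r was 0.52 for SLC25A20 with CPT1A and 0.40 for SLC25A37 with the red cell markers. It went from 0.31 to 0.23 for SLC25A3 with the ATP synthase subunits and stayed at 0.25 for SLC25A38 with ALAS1. The others were SLC25A15 with OAT at 0.24, SLC25A13 with ASS1 at -0.28 and SLC25A25 with PPARGC1A at 0.15. SLC25A10 with FASN was then at -0.02 and SLC25A4 with the muscle markers at 0.14.

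Correlations among the carriers themselves were computed after the data had been seen, for all 351 pairs. Pearson's r ran from -0.72 to 0.79 with a median of 0.07, and 207 pairs were above 0. Of the pairs 0 passed (permutation within diets, adjusted over 351 pairs, smallest adjusted p = 0.124), while 43 had an unadjusted p under 0.05, 36 of them with r above 0. With array spread removed 30 pairs had an unadjusted p under 0.05 and the smallest adjusted p was 0.488. At that threshold 17.6 of the 351 pairs are expected if none is related. The pairs share carriers and livers, and no share over pairs of other genes stands beside these counts. They therefore do not tell how many pairs are related.

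SLC25A24 with SLC25A33, an ATP-Mg/phosphate and a pyrimidine nucleotide carrier, had the highest r, 0.79 (permutation p = 0.00066; rho = 0.78, permutation p = 0.00114). It was 0.75 without the 2 livers farthest in SLC25A24 and 0.65 with array spread removed. SLC25A24 with SLC25A39, the glutathione importer, had r = -0.72 (permutation p = 0.00155), which went to -0.47 with array spread removed and -0.61 without the farthest livers. Translocase SLC25A6 and glutamate carrier SLC25A22 had r = 0.75 (permutation p = 0.00147), 0.70 with array spread removed and 0.59 without the farthest livers. Citrin SLC25A13 and acylcarnitine carrier SLC25A20 had r = 0.71 (permutation p = 0.00345), 0.68 with array spread removed and 0.56 without the farthest livers. The pairs named here are examples. Some pairs not named had a smaller p than the citrin pair, such as SLC25A33 with SLC25A37 (r = 0.68, permutation p = 0.00167). The array spread itself correlated above 0.5 with 6 carriers and below -0.5 with 2, beside 22.3% and 23.4% of all genes. Its part in the pairs was not tested further.

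**Figure D5:**
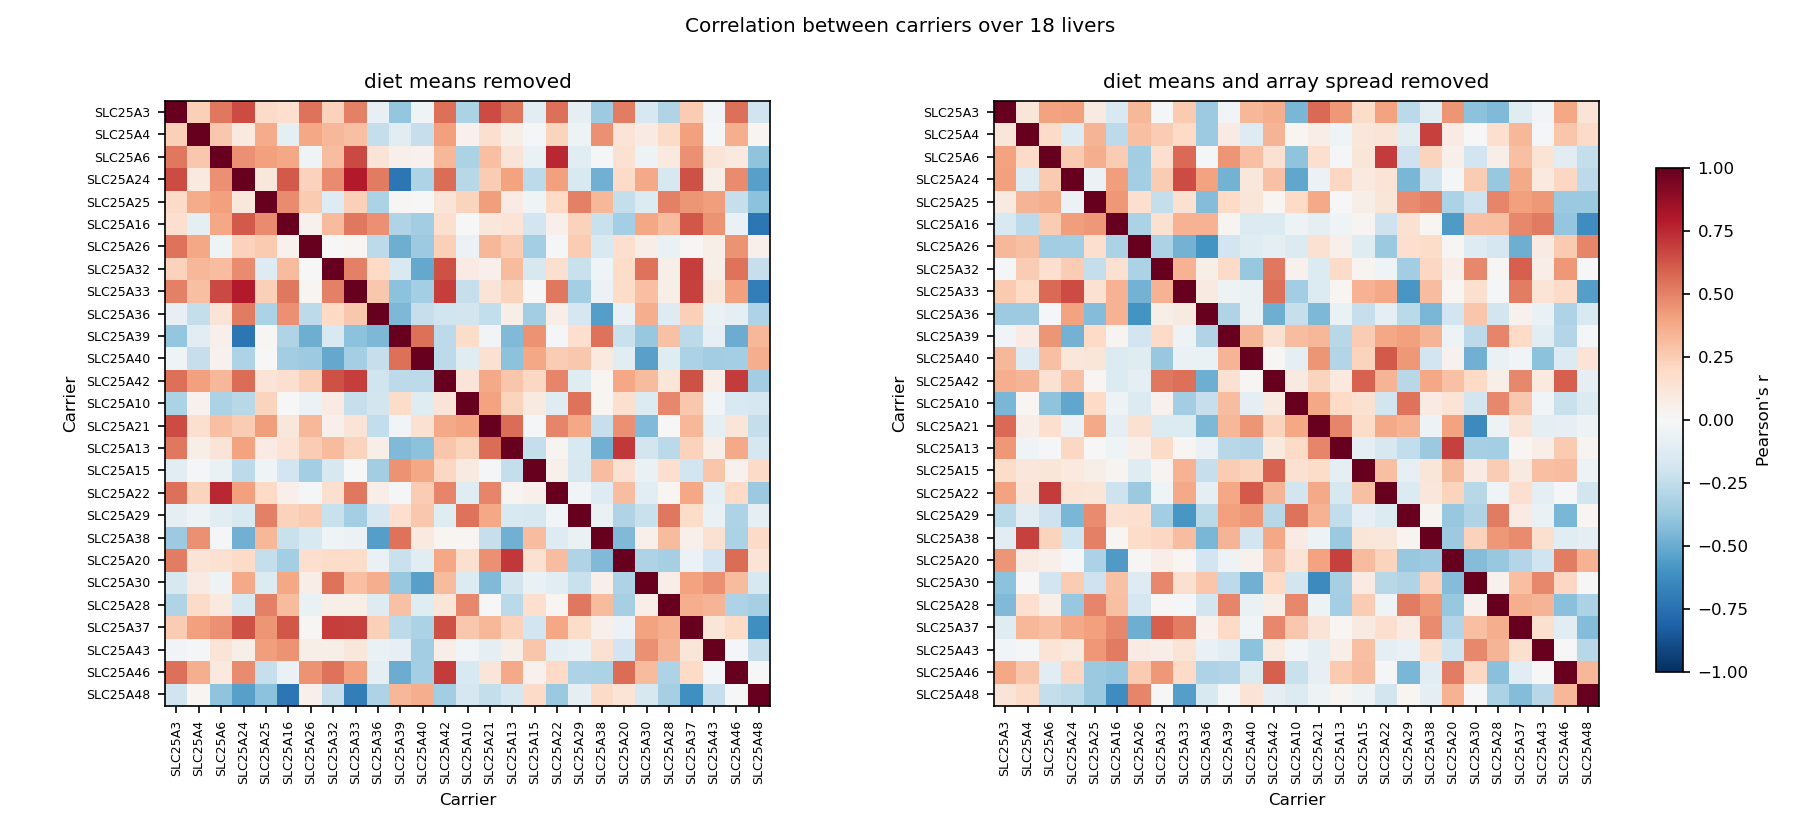
Pearson's r (colour) between the 27 carriers (both axes, grouped by role) over 18 livers after removal of diet means (left) and of diet means and array spread (right). The left panel holds r from -0.72 to 0.79; SLC25A24 with SLC25A37 is paler on the right, at 0.38 against 0.64.

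Genes that work beside the carriers were read from lists of enzymes and membrane proteins, and none of their members passed in any of the 3 comparisons. For HI15 against HI0 all 9 measured ATP synthase subunits were above 0, with a median of 0.14, beside 51.8% of genes; the subunit with the smallest p, ATP5H, was at 0.21 ± 0.11 (SE, limma adjusted p = 0.999). Of the import route that inserts carriers into the inner membrane, 10 of 11 members were above 0, with a median of 0.07. Outer membrane channel protein TOMM40L was at 0.21 ± 0.11, and TIMM22, the channel of the insertion complex, at -0.08 ± 0.12. The carriers themselves had 15 of 27 above 0. For HI7.5 against HI0, 5 of 9 ATP synthase subunits (median 0.00) and 7 of 11 import members (median 0.01) were above 0, beside 50% of genes. For HI15 against HI7.5 these were 9 of 9 (median 0.14) and 9 of 11 (median 0.06), beside 51.2%.

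In the malate-aspartate and glycerol phosphate shuttles 4 of 5 enzymes were above 0 for HI15 against HI0 (median 0.17), with mitochondrial malate dehydrogenase MDH2 at 0.18 ± 0.09 (SE) and glycerol phosphate dehydrogenase GPD1 at -0.20 ± 0.14. In the carnitine shuttle 4 of 6 were above 0 (median 0.05), with the transporter SLC22A4 at 0.22 ± 0.12 and CPT1A at -0.16 ± 0.29. Among enzymes of ornithine, arginine and glutamate 7 of 8 were above 0 (median 0.07); glutamine synthetase GLUL was at 0.49 ± 0.18 and ASL, argininosuccinate lyase, at -0.20 ± 0.12. For HI7.5 against HI0 these lists had 4 of 5, 2 of 6 and 4 of 8 above 0, with medians of 0.04, -0.02 and 0.00. ASS1 was at -0.52 ± 0.24 in that comparison and at 0.54 ± 0.24 for HI15 against HI7.5 (limma adjusted p = 0.999 in both). For HI15 against HI7.5 the lists had 3 of 5, 6 of 6 and 6 of 8 above 0, with medians of 0.09, 0.06 and 0.06. Of all genes, 51.8% were above 0 for HI15 against HI0, 50% for HI7.5 against HI0 and 51.2% for HI15 against HI7.5.

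The next 3 lists are first given for HI15 against HI0, where 51.8% of genes were above 0. Heme and iron-sulfur synthesis, served by the mitoferrins and SLC25A38, had 10 of 12 above 0 (median 0.07). In that list the cochaperone HSCB was at 0.23 ± 0.10 (SE) and UROS, uroporphyrinogen synthase, at -0.08 ± 0.11. One-carbon and cofactor enzymes had 7 of 11 above 0 (median 0.06), with NMNAT3 of NAD synthesis at 0.25 ± 0.14 and the lipoyl transferase LIPT1 at -0.20 ± 0.07. Other mitochondrial membrane transporters had 12 of 16 above 0 (median 0.03). For HI7.5 against HI0 these 3 lists had 9 of 12, 6 of 11 and 11 of 16 above 0, beside 50% of genes. For HI15 against HI7.5 they had 8 of 12, 6 of 11 and 12 of 16, beside 51.2%. For HI15 against HI0 the family relatives MTCH2, MTCH1 and UCP3 were at 0.18, 0.07 and -0.14, and the sideroflexin SFXN3 at -0.15 ± 0.10. Limma adjusted p-values of the genes with an SE in these lists were 0.999.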

How the data were processed

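RNA of 18 liver samples was hybridised to single-colour Affymetrix arrays, 6 per diet. The deposited values are log2 signals. Per the submitters' processing notes, the authors used RMA and version 1.4 of Affymetrix Expression Console. RMA removes differences in overall brightness between arrays. No detection or background values were used here, and dim probe sets were kept. The number of arrays limits the precision.

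Names came from the platform annotation, which lists 12556 probe sets, 12300 with 1 symbol and 256 with several; 5670 are unnamed here. Of the 27 carriers, 25 matched the RefSeq table of GRCg7b by gene identifier and kept their symbol; 2 carried no identifier. No build is named for the array, so no coordinates are given.

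Limma 3.58.1 under R 4.3.3 fitted 1 mean per diet over all 18 arrays and all 18226 probe sets (lmFit, eBayes), with two-sided p-values adjusted by Benjamini-Hochberg. The fit and the permutation test were tested on simulated data. Replicate numbers follow the order of deposit. The labels state no block, so none was used in the main fit. The last numbers of the titles fall in the same runs of 6 across diets. Deviations of samples in the same run correlated at a median of -0.0812 (18 pairs, from -0.337 to 0.190), with 5 pairs over 0.1.

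Differences were named for the 4 carriers with the smallest p in each direction of each comparison and the 4 with the smallest F p; spread for the 6 largest and 3 smallest SDs; and 1 gene per list in each direction for HI15 against HI0. Array spread as a covariate, the correlations among all carriers, the dimmer SLC25A29 probe set and the values of MTCH1, UCP3, ASS1, RBP4, OTC and the bright red cell markers were chosen after seeing the data. Carriers and lists were chosen with earlier results of these data known.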

Additional observations from a re-analysis of the deposited data

Results flagged for a closer look

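In 5 of the 81 groups of 6 livers (27 carriers in 3 diets), 1 liver stood apart from the other 5 of its diet by more than 0.625 of the group's range. Chance gives about 1 in 20 such groups. SLC25A4 in HI7.5 replicate 1 was at 9.39, and the other livers of that diet lay between 8.65 and 8.82. SLC25A20 in HI15 replicate 5 was at 10.72, above others at 10.44 to 10.50. SLC25A21 in HI7.5 replicate 3 was at 8.27, above others at 7.44 to 7.74. SLC25A28 in HI15 replicate 4 was at 9.0, above others at 8.75 to 8.84. SLC25A36 in HI7.5 replicate 6 was the 1 low value, at 6.93 below others at 7.32 to 7.53. Each of the 5 concerned a different liver.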

How the results depend on the processing

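No carrier and no probe set was called in any comparison under any alternative run, including each omission of 1 sample; the alternatives were array weights, quantile normalization, a robust prior with a variance trend, probe sets above the median alone (21 of 27 carriers kept), array medians subtracted, the title number or the array spread as a covariate, fits of the compared diets alone, a mean over probe sets and a block on runs of 6 title numbers. Of 24 named carrier differences and 15 of list genes, 2 turned sign, both on omission of a sample: CPT1A (-0.34 to 0.01) and TIMM22 (-0.14 to 0.01). The smallest adjusted p of any named difference was 0.722. Omissions took the median carrier difference to between -0.02 and 0.06 for HI15 against HI0, -0.03 and 0.04 for HI7.5 against HI0 and -0.03 and 0.04 for HI15 against HI7.5.

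Correlations near 0 turned sign. SLC25A15 with OAT was at 0.25 after quantile normalization, 0.02 after subtraction of medians, 0.24 with array spread removed and -0.28 to 0.19 on omissions. SLC25A4 with muscle markers was at 0.05 after quantile normalization and 0.14 with array spread removed. SLC25A10 with FASN was at 0.02 after subtraction of medians, 0.09 with the block on runs and -0.19 to 0.14 on omissions, and SLC25A13 with ASS1 at -0.29 to 0.13. The cause was not tested. With the block on runs of title numbers 0 probe sets were called, as without it. For HI15 against HI0, 1 carrier had an unadjusted limma p under 0.05 with the block, against 2 without it. Of all 18226 probe sets, 472 did so with the block and 573 without it.

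Unadjusted p under 0.05 was reached by 573 probe sets for HI15 against HI0 (938 with array weights) and 576 for HI15 against HI7.5 (1225 with array spread as a covariate). Among all diets it was 523 (791 with array weights, 871 with array spread) and for the slope 592 (968 with array weights). Over the brighter probe sets alone, fewer being tested, these were 219, 240, 191 and 228, and 205 against 565 for HI7.5 against HI0. Omission of 1 sample took them to between 420 and 862 for HI15 against HI0, 426 and 987 for HI7.5 against HI0, 457 and 829 for HI15 against HI7.5, 418 and 751 among diets and 423 and 861 for the slope. Dim probe sets limit what SLC25A40 and SLC25A48 can show.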
